A study of Rattus norvegicus with 10 samples.

Results

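Transcripts of 10 genes whose proteins are used as markers of exosomes were followed through rat milk whey over lactation and in serum. The genes were Cd63, Cd9, Cd81, Cd82, Tsg101, Pdcd6ip, Flot1, Hspa8, Anxa2 and Anxa5, and they were taken by name. All non-control probes carrying one of these names were used, which gave 10 of the 35469 gene names and 18 of the 41012 probes on the array. Pdcd6ip had 5 probes, Hspa8 had 4, Anxa5 had 2 and each of the other genes had 1. The accession of each of the 10 genes keeps the same symbol in a current RefSeq table.

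Whey came from 3 dams of the inbred rat strain F344/N, which were milked early (d 2), at mid-lactation (d 9) and late (d 16), while serum was drawn from them on d 21 postpartum. The dams were untreated apart from the handling for milking, which included an oxytocin injection and light anesthesia, and each dam had a cage of her own. Whey had been cleared of fat, cells and casein by centrifugation and passed through filters, as serum also was. Each day was measured on 3 arrays, and serum on 1 array of RNA mixed from the 3 dams, so that serum has no replicate. Cy3-labelled cRNA from 100 ng of total RNA went onto each array. Values below are log2 signals after quantile normalization over all 10 arrays, and a level is therefore relative to the other transcripts of the same RNA, not to a volume of milk.

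Exosomes are small vesicles that form when the membrane of a late endosome buds inward and the endosome later fuses with the cell surface, and they are found in milk. Tetraspanins such as Cd63, Cd9, Cd81 and Cd82 sit in their membrane, Tsg101 and Alix (the product of Pdcd6ip) belong to or assist the ESCRT machinery that buds the vesicles, and Flot1, Hsc70 (the product of Hspa8) and annexins are carried as membrane-bound or cytosolic cargo. The arrays measured the mRNA of these genes in the fluid, not vesicles and not proteins. In a bulk fluid, fewer cells giving off a transcript and less of it per cell cannot be told apart.

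The 60-base probes of the tetraspanins and Anxa2 are shown because each value below is the signal of that stretch alone, and probes 2 and 4 of Pdcd6ip because they carried its larger day differences. Probe 1 of Pdcd6ip, from which the levels of that gene are given, is not printed. Sequences run 5′ to 3′ as the files give them, with positions on rat genome build rn4 as the files give them and no base marked in capitals. The 60-base probes of Cd9, Cd81 and Anxa2 and probe 2 of Pdcd6ip spanned 8573, 453, 582 and 1820 bases of the genome. Each of these thus matched the genome in separate parts. Probe 4 of Pdcd6ip spanned 59 bases.
Cd63, chr7:2210440-2210499, plus strand: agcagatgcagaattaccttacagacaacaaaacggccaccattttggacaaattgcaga
Cd9, chr4:162283341-162291913, minus strand: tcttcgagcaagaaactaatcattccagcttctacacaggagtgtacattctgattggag
Cd81, chr1:203341891-203342343, plus strand: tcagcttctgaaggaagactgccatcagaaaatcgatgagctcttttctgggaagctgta
Cd82, chr3:77832547-77832606, minus strand: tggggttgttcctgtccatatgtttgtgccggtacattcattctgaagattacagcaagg
Anxa2, chr8:73933151-73933732, plus strand: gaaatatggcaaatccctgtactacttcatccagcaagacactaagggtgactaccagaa
Pdcd6ip probe 2, chr8:118319285-118321104, minus strand: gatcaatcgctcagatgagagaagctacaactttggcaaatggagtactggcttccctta
Pdcd6ip probe 4, chr8:118314663-118314721, minus strand: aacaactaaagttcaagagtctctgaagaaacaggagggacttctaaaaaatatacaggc

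The whey arrays differed in brightness, with a 75th percentile of the processed signal from 12.5 to 83.2, and that of the serum array was 4.11, while spike-in control probes differed by 1.48-fold over all 10 arrays. The d 16 arrays and serum lay together on slide 3, scanned on a later day, so the d 16 values and this slide cannot be told apart. Slide 2 held d 2 whey of dam 3 with all 3 d 9 arrays. Markers of secretory epithelium, such as caseins, were well above background on every whey array for 9 of 9 genes, with summed signals of 1127970 to 1614540 in whey and 8619 in serum. In serum, summed signals were 90517 for platelet markers and 374401 for erythroid markers.

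Of the 10 genes, 8 were well above background on every d 2 whey array, 9 on every d 9 and 9 on every d 16 whey array. Together 9 genes, with 17 of the 18 probes, entered the tests between days. Tsg101, the ESCRT-I subunit that recognises ubiquitinated cargo, was the exception. Its probe was well above background on only 1 of the 10 arrays, that of d 9 dam 3, the brightest array, with a processed signal of 17.7 there, and it was not tested. Cd9 passed the filter only through d 9 and d 16, where its signal was higher. Such a gene had to differ, so its values from d 2 are given with no test and it is left out of the counts, which are over the other 8 genes.

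Over the 3 days the marker genes did not all follow one course. On d 16, compared with d 2, Cd63, Anxa2 and Hspa8 were higher and Pdcd6ip was lower among the 8 genes well above background on each of the 9 whey arrays. Between d 2 and d 9 only Flot1 was called, and it was lower. Between d 9 and d 16 only Anxa2 was called, and it was higher. Called or not, 8 of the 9 tested genes changed upward between these days and 1, Pdcd6ip, downward. The 8 genes well above background throughout had a median change of 0.44 there, where that of all probes was -0.06. Under spike-in scaling, where the median of all probes was -0.93 from d 9 to d 16, Anxa5, Cd82, Cd9, Flot1 and Hspa8 also changed downward.

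**Figure D1:**
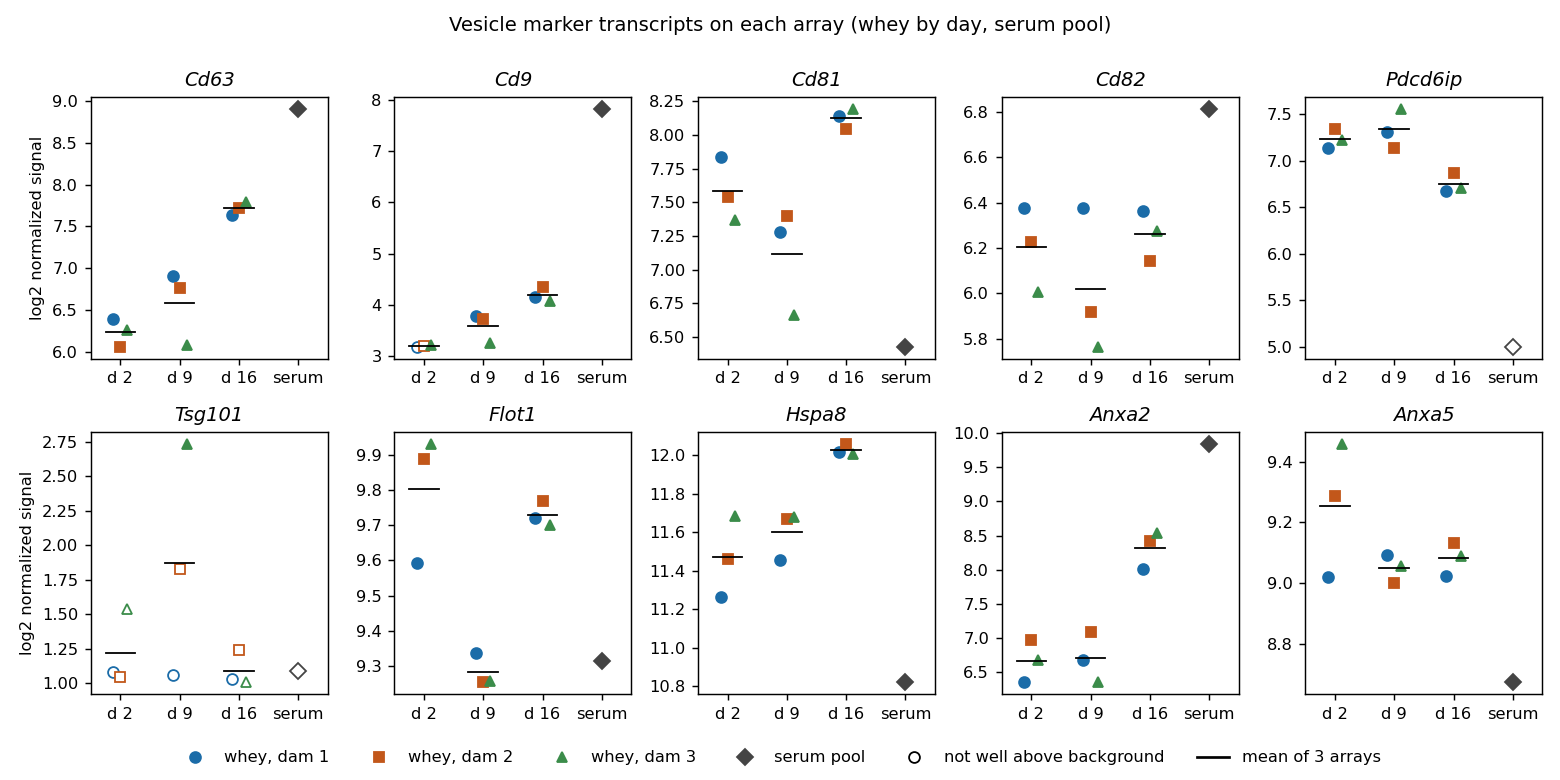
Log2 normalized signal of each of the 10 genes (y axis, one panel per gene, own scale) on d 2, d 9 and d 16 whey and in the serum pool (x axis), with a point per array, open where the probe was not well above background, and a line at the mean of 3 arrays. Cd63 and Anxa2 on d 16 lie above all their d 2 values, and Tsg101 is filled only at d 9 dam 3.

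Cd63, a tetraspanin of late endosomes that is enriched in exosomes, rose late in lactation relative to the other transcripts. Its levels were 6.39, 6.06 and 6.25 on d 2 in dams 1 to 3, 6.91, 6.76 and 6.07 on d 9, and 7.64, 7.73 and 7.79 on d 16. All 3 d 16 values lay above all values of the earlier days, while d 9 dam 3 lay within the d 2 range. The change from d 2 to d 16 was 1.48 on the log2 scale (SE 0.22, adjusted p = 0.003), or 2.80-fold, and for d 9 to d 16 it was 1.14 with an adjusted p of 0.0542. The early change, d 2 to d 9, was 0.34 (SE 0.22, adjusted p = 0.303). Without the array of d 9 dam 3, it was 0.60 with an adjusted p of 0.0387. By quantitative PCR in equal volumes of whey, the paper reported no change of Cd63 over lactation. That measure is per volume, unlike the levels here.

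Cd9, a tetraspanin of the cell surface, lay near the limit of the arrays on d 2, where 1 of 3 arrays was well above background. Its levels were 3.18, 3.19 and 3.21 on d 2, 3.78, 3.72 and 3.25 on d 9, and 4.15, 4.35 and 4.07 on d 16. The d 16 values lay above all those of d 9, and the values of these 2 days did not overlap in 29.4% of all probes either. With only 1 of 3 d 2 values well above background, no order of d 2 and d 9 is read. The mean of d 16 lay 0.99 above that of d 2 on the log2 scale. By normexp background correction, which adds an offset to all signals, it lay 0.19 above. The size of this difference is therefore not settled. Between d 9 and d 16, where it was well above background on every array, the change was 0.61 (adjusted p = 0.115).

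Cd81, a tetraspanin that partners with Cd9, had its lowest whey value on d 9 and its highest on d 16. Its levels were 7.84, 7.54 and 7.37 on d 2, 7.28, 7.40 and 6.67 on d 9, and 8.14, 8.05 and 8.20 on d 16. The d 16 values lay above all the others, while those of d 2 and d 9 overlapped. No pair of days passed the threshold: the difference was -0.47 for d 9 over d 2 (adjusted p = 0.163), 0.55 for d 16 over d 2 (adjusted p = 0.0912) and 1.02 for d 16 over d 9 (adjusted p = 0.07). Over the 3 days together, limma's F test gave Cd81 an adjusted p of 0.0274. Per volume of whey, by quantitative PCR, the paper reported significantly more Cd81 in colostrum than in mature milk. The levels here are relative to other transcripts, not per volume.

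Cd82, a tetraspanin found at the cell surface and in endosomes, overlapped on all days. Its whey levels were 6.20 ± 0.18 on d 2, 6.02 ± 0.32 on d 9 and 6.26 ± 0.11 on d 16 (SD, n = 3). Changes between days were -0.18, 0.06 and 0.24, with adjusted p from 0.509 to 0.843. The 95% interval of the change from d 2 to d 16 ran from -0.37 to 0.48, which does not reach the change of Cd63.

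Pdcd6ip encodes Alix, which links ESCRT-III to syntenin and to the tetraspanin cargo. Probe 1, which had the highest signal among those well above background throughout whey, gave levels of 7.14, 7.34 and 7.22 on d 2, 7.31, 7.14 and 7.56 on d 9, and 6.67, 6.87 and 6.70 on d 16. The d 16 values lay below all 6 earlier values. The change from d 2 to d 16 was -0.49 (SE 0.14, adjusted p = 0.0367), or 1.40-fold lower, and blocking on the dam raised the adjusted p to 0.0578. Under spike-in scaling its direction turned, to 0.11 (adjusted p = 0.951).

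The other probes of Pdcd6ip moved from d 2 to d 16 by -1.17 (probe 2, SE 0.26, adjusted p = 0.0139), -0.11 (probe 3, adjusted p = 0.756), -0.73 (probe 4, SE 0.16, adjusted p = 0.0147) and 0.59 (probe 5, adjusted p = 0.19). Thus 3 of its 5 probes were lower and 2 were not called. Probe 2 read 6.31, 7.19 and 6.80 on d 2 and 5.23, 5.80 and 5.75 on d 16, and it was already lower on d 9 (-0.91, adjusted p = 0.047), though under spike-in scaling that difference was 0.58 (adjusted p = 0.449). Probe 4 read 5.88, 6.05 and 5.86 on d 2 and 5.11, 5.11 and 5.37 on d 16. In both, no d 16 value reached the lowest d 2 value, and under spike-in scaling they kept the direction, at -0.58 and -0.13, without passing the test. The probe with a positive change, probe 5, was well above background on 2 of 3 d 2 arrays.

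Flot1 encodes flotillin 1, a scaffold of lipid rafts. Its levels were 9.59, 9.89 and 9.93 on d 2, 9.34, 9.25 and 9.26 on d 9, and 9.72, 9.77 and 9.70 on d 16. The d 9 values lay below all the others. The fall from d 2 to d 9 was -0.52 (SE 0.12, adjusted p = 0.0257), or 1.44-fold, and on slide 2 alone, where 1 d 2 array stands against 3 d 9 arrays, the difference was -0.65. A fixed slide block gave an adjusted p of 0.103, and under spike-in scaling its direction turned, to 0.96 (adjusted p = 0.211). On d 16 the difference from d 2 was -0.08 (adjusted p = 0.677).

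Hspa8 encodes Hsc70, the constitutive chaperone that uncoats clathrin vesicles. Probe 1 read 11.26, 11.46 and 11.68 on d 2, 11.45, 11.67 and 11.68 on d 9, and 12.02, 12.06 and 12.01 on d 16. The d 16 values lay above all the others. The change from d 2 to d 16 was 0.56 (SE 0.14, adjusted p = 0.0208), or 1.47-fold, against 0.13 from d 2 to d 9 (adjusted p = 0.526). The call was lost under 75th percentile scaling (0.46, adjusted p = 0.0801), under spike-in scaling (1.05, adjusted p = 0.464) and without any of 4 single arrays, d 2 dam 2 (0.0602) or d 16 dams 1 to 3 (0.0519, 0.0638 and 0.062). The other 3 probes were not called from d 2 to d 16, at 0.46 (adjusted p = 0.0613), 0.17 (adjusted p = 0.59) and -0.36 (adjusted p = 0.299). Hspa8 has near-identical relatives, among them 1 further probe on the array described as like this protein, so its signal may include theirs.

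**Figure D2:**
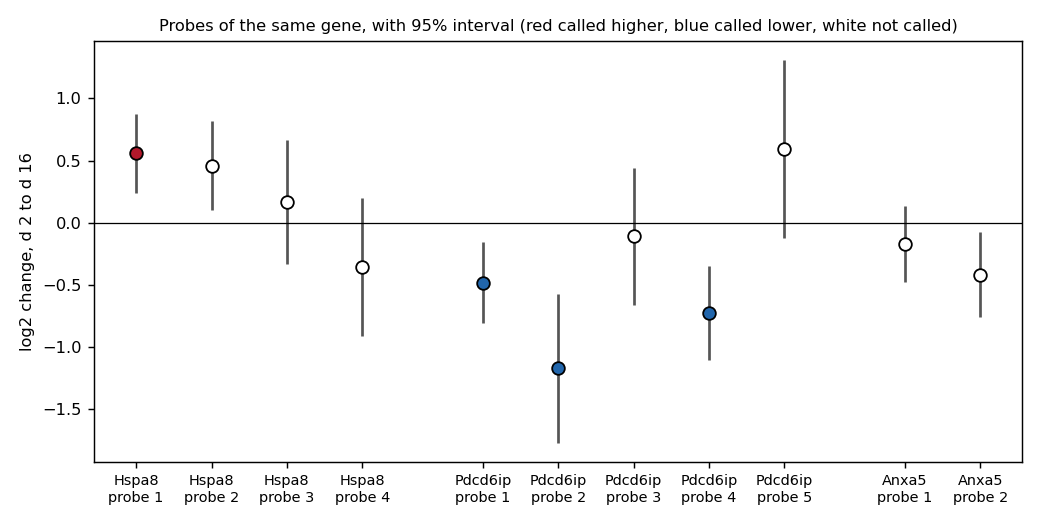
Log2 change from d 2 to d 16 (y axis) of each probe of Hspa8, Pdcd6ip and Anxa5 (x axis), with its 95% interval. Probes of the same gene gave changes from -1.17 to 0.59 in Pdcd6ip and from -0.36 to 0.56 in Hspa8.

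Anxa2, a calcium-dependent phospholipid-binding protein, had the largest change of the 9 tested genes between d 2 and d 16. Its levels were 6.35, 6.97 and 6.67 on d 2, 6.67, 7.08 and 6.35 on d 9, and 8.02, 8.41 and 8.53 on d 16. The d 2 and d 9 values overlapped and all d 16 values lay above them. On d 16 Anxa2 was 1.66 higher than on d 2 (SE 0.25, adjusted p = 0.00303), or 3.16-fold, and 1.62 higher than on d 9 (SE 0.25, adjusted p = 0.0303). The difference of d 9 over d 2 was 0.04 (SE 0.25, adjusted p = 0.932). Leaving out any one array kept the call against d 2, while leaving out any of 7 of the 9 arrays ended that against d 9 (adjusted p up to 0.12), namely d 2 dam 2 (0.0508), d 9 dams 1 to 3 (0.0638, 0.0585 and 0.102) and d 16 dams 1 to 3 (0.0697, 0.0969 and 0.12).

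Anxa5, which binds exposed phosphatidylserine and is the annexin used to stain dying cells, was not called on any pair of days. Its levels were 9.25 ± 0.22 on d 2, 9.05 ± 0.05 on d 9 and 9.08 ± 0.05 on d 16 (SD, n = 3). The change from d 2 to d 16 was -0.17 (adjusted p = 0.364), with a 95% interval from -0.48 to 0.14, and its second probe gave -0.42 (adjusted p = 0.0681). The change of Anxa2 over the same days lay outside this interval.

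Counted over the 8 genes well above background on every whey array, 0 were higher and 1 was lower from d 2 to d 9, where 11.2% of all 16849 probes tested were higher and 6.46% lower. Unadjusted, 1 of the 8 had a p under 0.05, against 34.5% of all probes. By d 16, 3 were higher than on d 2 and 1 was lower, against 16.0% and 12.5% of all probes, and against 16% and 15.8% of the 9801 probes that were likewise well above background on every whey array. Their median change was 0.30, where that of all probes was 0.04. On d 16 against d 9, 1 was higher and 0 were lower, against 0.558% and 0.861% of all probes. Unadjusted, 6 of the 8 had a p under 0.05 between these days, against 18.7% of all probes and 21.6% of those 9801. Anxa2, Cd63, Cd81, Flot1 and Hspa8 of the 6 were higher on d 16 and Pdcd6ip was lower.

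The values of both days did not overlap in 1 of the 8 genes for d 2 and d 9, in 5 for d 2 and d 16 and in 6 for d 9 and d 16. These stand against 38.8%, 48.2% and 29.4% of all probes. Among the 9801 probes well above background on every whey array the shares were 43.5%, 55.6% and 32.5%, so the count for d 2 and d 16 lay near its share. Limma's F test over the 3 days called 6 of the 8 genes, namely Anxa2, Cd63, Cd81, Flot1, Hspa8 and Pdcd6ip, against 25.6% of all probes and 28.8% of those 9801. In an F test over dams, 1773 of all probes (10.5%) had an unadjusted p under 0.05 and 0 passed after adjustment. None of the 8 genes had an unadjusted p under 0.05 in it (adjusted p of 0.476 or more for every probe of the markers), which with 3 dams does not show that dams were alike. The counts depended on the settings, and under spike-in scaling Anxa2 alone kept its call from d 2 to d 16.

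**Figure D3:**
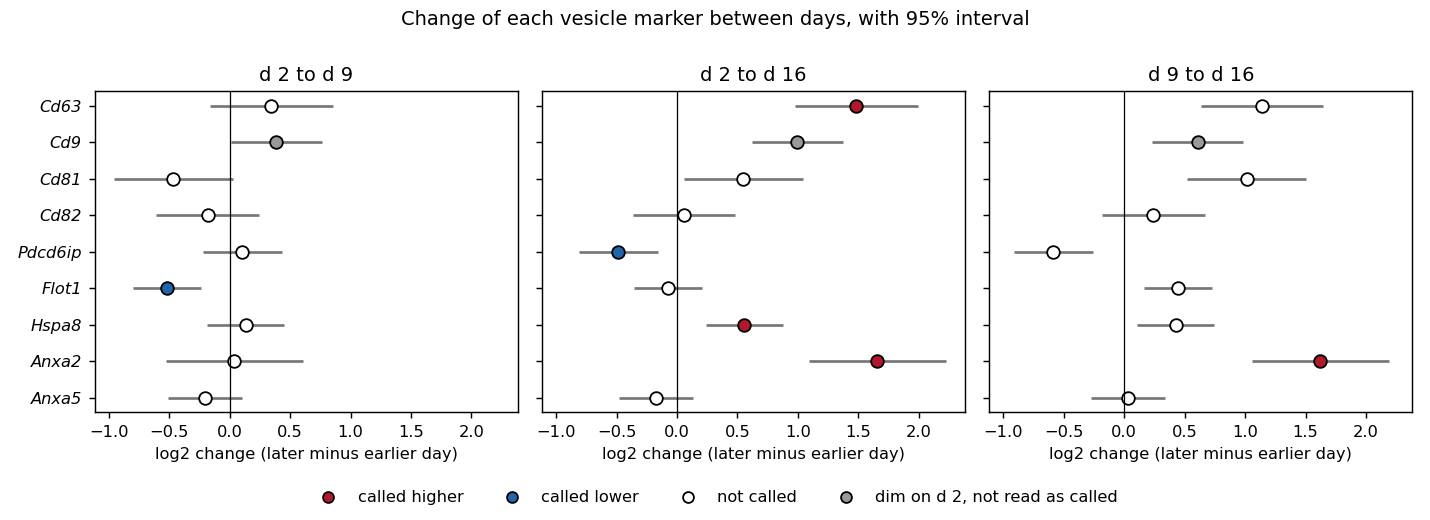
Log2 change (x axis) of the 9 tested genes (y axis) between each pair of days, with the 95% interval, in red or blue where the adjusted p was under 0.05. Cd9, in grey, was not well above background on 2 of 3 d 2 arrays and is not read as called. In the middle panel Cd63, Hspa8 and Anxa2 are red and Pdcd6ip is blue, and in the right panel Anxa2 alone is red at 1.62.

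Under spike-in scaling the median change of all probes was itself 1.52 for d 9 over d 2, 0.59 for d 16 over d 2 and -0.93 for d 16 over d 9. Relative to that median, the change from d 2 to d 16 was 1.69 for Anxa2, 1.52 for Cd63, 0.46 for Hspa8 and -0.48 for Pdcd6ip, close to the values above. On the spike-in scale itself, Anxa2 was 2.28 higher (adjusted p = 0.0338) and Cd63 2.11 higher (adjusted p = 0.0596).

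Markers of other cells moved along with d 16. The summed signal of 11 macrophage markers was 614 to 699 on d 2, 883 to 1985 on d 9 and 3121 to 4003 on d 16. Of the 8 macrophage markers tested from d 2 to d 16, 5 were well above background on every whey array. Among these 5, Aif1, C1qb, Fcer1g and Tyrobp were higher and Cd14 was lower. Of all probes, 16.0% were higher and 12.5% lower, and the marker counts that follow are to be read against these shares. C1qa, C1qc and Cd68 were dim on d 2 and entered the test through the later days, so their calls are not read. Csf1r and Marco were not well above background on any whey array. Of the secretory epithelium markers 4 of 9 were higher and none lower, of the lymphocyte markers 2 of 3 were higher, the 1 erythroid marker tested was higher, the 1 platelet marker tested, Pf4, was lower, and 0 of 6 myoepithelium and 0 of 4 neutrophil markers were called. All 7 liver markers were not well above background in whey. The part of these cells in the changes of Cd63, Anxa2 and Hspa8 was not tested.

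The wider vesicle machinery was read from lists of other tetraspanins, ESCRT subunits, Alix and syntenin partners, annexins, caveolar proteins, chaperones, release factors and late endosomal proteins, with 115 genes on the array and 91 tested. On d 9, 9 were higher and 8 lower than on d 2, which is 18.7% of those tested against 17.7% of all probes. On d 16, 19 were higher and 8 lower than on d 2, 29.7% against 28.5% of all probes, with a median change of 0.01. The pathway genes were thus called about as often as any other probe. Among the 72 well above background on every whey array, 14 were higher and 7 lower on d 16 than on d 2, or 29.2%, against 31.8% of such probes overall. The counts for single lists below are to be read against these shares. Between d 9 and d 16, 1 rose, Anxa1, named after its value was seen (2.12, adjusted p = 0.0404), and 0 were called when dams were blocked. Spike-in scaling gave 29 calls between d 2 and d 9 and left 4 between d 2 and d 16. The direction of each called gene named below was the same under it and under 75th percentile scaling. Sdc1 and Sdcbp, named below but not called, were not followed under other scalings.

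Among 26 other ESCRT subunits tested, 6 rose and 1 fell from d 2 to d 16. Chmp3, an ESCRT-III filament subunit, rose from 8.85 to 9.67 (change 0.82, adjusted p = 0.004), and Snf8, an ESCRT-II subunit, from 10.53 to 11.10 (0.57, adjusted p = 0.00703). Chmp4c, an ESCRT-III subunit that also acts in the abscission of dividing cells, fell from 7.53 to 6.37 (-1.16, adjusted p = 0.0153). Of 6 Alix and syntenin partners, 1 was called. This was Sdc4, one of the syndecans that syntenin binds, which rose from 5.02 to 6.68 (1.66, adjusted p = 0.00391). Sdc1, another syndecan, changed by -0.01 (adjusted p = 0.983), and Sdcbp, which encodes syntenin, by 0.30 (adjusted p = 0.351).

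Among 11 other tetraspanins tested, 3 were called higher and none lower, but only Tspan6 of the 3 was well above background on every d 2 array. Tspan6 rose by 0.92 (adjusted p = 0.0421), and 10 of its 20 alternatives kept the call. Tspan17 and Tspan14 were well above background on 1 and 0 of 3 d 2 arrays, so they entered the test through the later days and no change is given for them. Among 7 other annexins and S100a10 tested, 1 was called higher and 2 fell. S100a10, the partner that binds Anxa2, fell from 11.03 to 10.21 (-0.83, adjusted p = 0.00903) while Anxa2 rose. Anxa7, which binds and fuses membranes, fell by 0.94 (adjusted p = 0.00351). Anxa3, the gene called higher, was well above background on 1 of 3 d 2 arrays, and its change is not given.

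Of 17 chaperones and co-chaperones related to Hsc70, 3 were called higher and 4 lower, or 2 and 4 of the 14 well above background on every whey array. Hspa5, the chaperone of the endoplasmic reticulum, rose from 7.46 to 8.24 (0.78, adjusted p = 0.00335), and Bag3, a co-chaperone of Hsc70 well above background on 2 of 3 d 2 arrays, read 4.90 on d 2 and 6.21 on d 16. Hspa4, a nucleotide exchange factor for Hsc70, fell from 7.63 to 6.15 (-1.48, adjusted p = 0.00911). Among 15 release factors 4 were called higher and 1 lower, or 3 and 0 of the 10 well above background on every whey array. Ykt6, a SNARE protein, rose by 0.66 (adjusted p = 0.00584) and Snap23, a SNARE of the cell surface, by 0.49 (adjusted p = 0.0161), while Sytl4, a Rab27 effector, fell by 1.23 (adjusted p = 0.00808) and was well above background on 2 of 3 d 16 arrays. Of 7 late endosomal and lysosomal genes 1 rose, the calcium channel gene Mcoln1 (1.32, adjusted p = 0.00341), and of 2 flotillin and caveolar genes tested none was called.

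**Figure D4:**
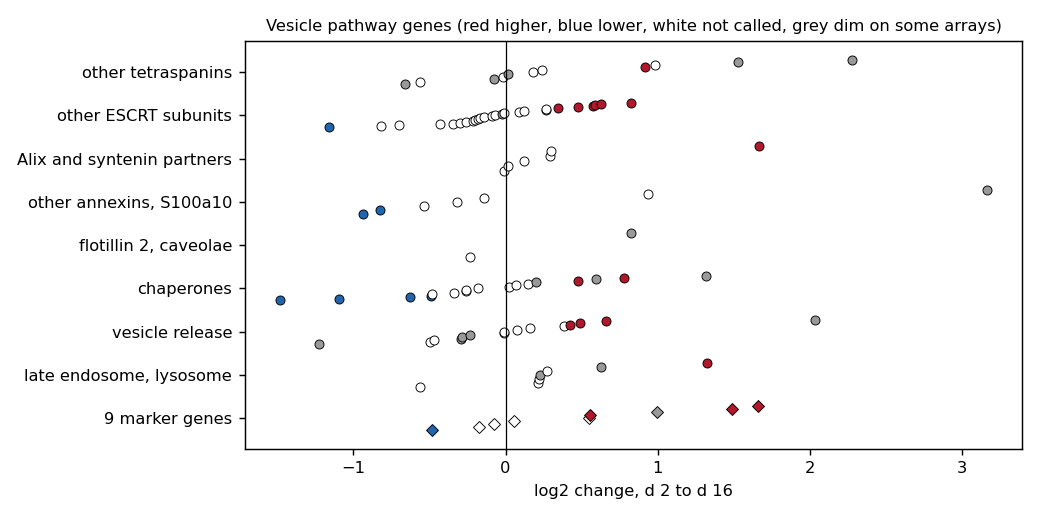
Log2 change from d 2 to d 16 (x axis) of the 91 vesicle pathway genes tested, a circle per gene by list (y axis), with the 9 tested marker genes as diamonds, in red or blue where the adjusted p was under 0.05 and in grey, called or not, where a gene was not well above background on every whey array. Red and blue circles both occur among ESCRT subunits and chaperones.

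For each marker gene called, and for Cd9, the genes with the most similar course over the 9 whey arrays were sought. The search was among 7255 to 7259 other named probes, each well above background on those arrays. For Cd9 itself, only 1 of the 3 d 2 values was well above background. They were RGD1564450 (r = 0.98) and RT1-Cl (r = 0.97) for Cd63, Kif1c (r = 0.98) and Ube2q1 (r = 0.98) for Cd9, Nme3 (r = 0.98) and Btbd6 (r = 0.98) for Anxa2, Acbd5 (r = 0.97) and RGD1310660 (r = 0.97) for Hspa8, Mrpl10 (r = 0.99) and Grb10 (r = 0.97) for Pdcd6ip, and RGD1311899 (r = 0.97) and RGD1311447 (r = 0.96) for Flot1. These are the highest of many Pearson correlations over 9 arrays that share their days, and are given as a description.

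In the serum pool, 8 of the 10 genes were well above background, the exceptions being Pdcd6ip and Tsg101. With a processed signal above 20 as well, as was asked of whey, 6 were left, since Cd81 (10.1) and Cd82 (12.6) were dimmer. Serum stood above every whey array for Cd9 (7.83), Cd63 (8.91), Anxa2 (9.84) and Cd82 (6.81), and below every whey array for Cd81 (6.43), Hspa8 (10.82) and Anxa5 (8.67). Flot1 in serum (9.31) lay within its whey range. Serum was 6.14-fold higher than the whey mean for Anxa2 and 4.20-fold for Cd63. These were the genes past a 4-fold difference among the 7 well above background on all 10 arrays. Over 4-fold differences were seen in 17.5% of the 4635 such probes towards serum and in 8.61% towards whey. Against the d 16 arrays on its own slide, serum was 2.88-fold higher for Anxa2 and 2.29-fold for Cd63. Cd9 was compared with d 16 alone, since 2 of its d 2 values were not well above background. Serum was 12.5-fold higher than d 16 whey for Cd9, and 3.75-fold under normexp background correction.

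Whey was higher than serum by 2.27-fold for Cd81, 1.84-fold for Hspa8, 1.37-fold for Anxa5 (probe 1) and 1.22-fold for Flot1. The sizes for these genes, in the same order, depended on the scale. They were 24.5-, 22.1-, 18.8- and 16.5-fold under spike-in scaling and 3.49-, 3.14-, 2.67- and 2.35-fold under 75th percentile scaling. Under normexp they were 1.51-, 1.72-, 1.205- and 1.18-fold. By the second probe of Anxa5, which was not well above background in serum, whey was at least 3.27-fold higher. For Pdcd6ip it was at least 2.39-fold higher by probe 1, since serum was not well above background. Its other probes were likewise dim in serum and gave bounds of 1.17 (probe 2), 1.10 (probe 3), 0.80 (probe 4) and 0.47 (probe 5). Probes 4 and 5 thus set no lower limit on an excess in whey. With 1 serum array no difference was tested. The scale decided several directions: under spike-in scaling whey was higher by 2.14-fold for Anxa2, 3.19-fold for Cd63 and 7.09-fold for Cd82, while serum over d 16 whey was 1.10-fold for Cd9. Under 75th percentile scaling serum stayed higher, by 3.28-fold for Anxa2, 2.20-fold for Cd63 and, over d 16, 7.30-fold for Cd9. The summed signals of platelet, erythroid and macrophage markers in serum, 90517, 374401 and 14432, exceeded those of every whey array, and their part in the serum levels of Cd9, Cd63 and Anxa2 was not tested.

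**Figure D5:**
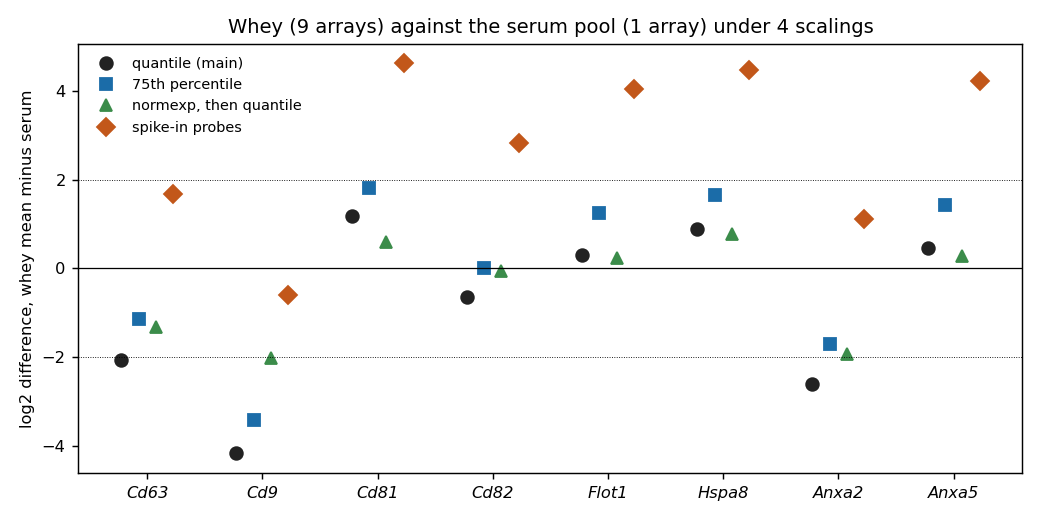
Log2 difference between the mean of the 9 whey arrays and the serum array (y axis, above 0 where whey is higher) for the 8 genes measured in both (x axis) under 4 scalings, with dotted lines at 4-fold. The whey mean of Cd9 includes 2 d 2 values not well above background. Anxa2, Cd63 and Cd82 cross 0 under spike-in scaling.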

How the data were processed

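Intensity values were used as deposited: the authors scanned 1-colour Agilent arrays with Feature Extraction 9.5.3.1, and the processed signal is, per the file headers, background-subtracted and not normalized between arrays. Other values deposited with them are flags of 0 or 1, such as well above background. A deposited table of normalized values, with 10 columns whose names match no label, was not used. Positions are the files' own, on rn4.

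From these, log2 processed signals were quantile normalized over the 10 arrays, outlier-flagged spots left out, spots of a probe averaged, and 16849 probes with a signal above 20 and well above background on at least 1 whey array were kept. Days were compared with limma 3.58.1 in R 4.3.3 (two-sided, 9 whey arrays, no block, 1.82 prior degrees of freedom), Benjamini-Hochberg adjustment over all 16849 probes and a threshold of 0.05. Adjusted p values come from this fit. All members and probes are named, each gene by its probe well above background on most whey arrays (ties by signal). Also named are, from each pathway list, up to 3 genes with the smallest p from d 2 to d 16, and 2 similar genes per called member and for Cd9. Lists were matched by the files' names or current symbols. For a bound, a dim probe was set, per array, to the lowest value well above background. Same-numbered samples come from the same dam, and their residuals over all probes correlated with r of -0.02 to 0.22. Serum entered no test. The fit was tested on simulated data. The members and lists were chosen with earlier results of these data known. Alternatives were another scaling (75th percentile, spike-in, 9 arrays), normexp (offset 50), other filters, dam or slide blocks, 2 days only, the Tukey-Kramer test, the brightest probe and leaving out each whey array.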

Additional observations from a re-analysis of the deposited data

How the results depend on the processing

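From d 2 to d 16, the rise of Anxa2 kept its call in 20 of 20 alternatives and that of Cd63 in 19 of 20, lost under spike-in scaling (adjusted p = 0.0596). The sizes depended on the processing. They ranged from 1.08 under normexp to 2.28 under spike-in scaling for Anxa2, and likewise from 0.81 to 2.11 for Cd63. The difference of Cd9 between these days, dim on d 2, ranged from 0.19 under normexp to 1.54 under spike-in scaling. Hspa8 kept its call in 14 of 20, Pdcd6ip in 11 of 20 and Flot1 (d 2 to d 9) in 12 of 21 alternatives. The number of arrays and, for Cd9 and Tsg101, the signal over background limit what could be seen. The causes of the changes below were not tested.

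Counts of marker genes called, here with Cd9 included and so 1, 5 and 1 for d 2 to d 9, d 2 to d 16 and d 9 to d 16, moved as follows. From d 2 to d 9 they were 0 under 75th percentile scaling, a fixed slide block or the 2 days alone, and 2 under spike-in scaling. From d 2 to d 16 they were 3 under 75th percentile and 1 under spike-in scaling. From d 9 to d 16 they were 0 under spike-in scaling, no filter, the 2 days alone and the Tukey-Kramer test, 6 under normexp, and 4 with the stricter filter or a random slide block. Leaving out single arrays gave 0 to 2, 3 to 6 and 0 to 1. Pathway genes called, given above as 17, 27 and 1, were 29, 4 and 0 under spike-in scaling and 10, 16 and 0 by the Tukey-Kramer test. From d 2 to d 9 they were 2 with a fixed slide block and 8 with the 2 days alone. From d 9 to d 16 they were 0 under 75th percentile scaling, no filter, the dam block or the 2 days alone, 8 under normexp, and 3 with the stricter filter or a random slide block. Leaving out single arrays gave 6 to 14, 14 to 28 and 0 to 3. Genes past 4-fold between the whey mean and serum, 3 with Cd9 included, were 1 under 75th percentile scaling and normexp, 5 under spike-in scaling and 2 to 3 without single arrays.

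Directions turned under spike-in scaling for Anxa5 (1.29, 0.40 and -0.90 in the 3 comparisons), Flot1 (0.96, 0.46 and -0.50), Cd81 (1.03, d 2 to d 9), Cd82 (1.32, d 2 to d 9, and -0.64, d 9 to d 16), Pdcd6ip (0.11, d 2 to d 16), and Cd9 (-0.13) and Hspa8 (-0.53) from d 9 to d 16. Against serum they turned for Anxa2 (1.10), Cd63 (1.67) and Cd82 (2.83), and for Cd82 (0.012) also under 75th percentile scaling. Other turns were of uncalled values near 0, namely Anxa5 (-0.063, d 9 to d 16, 75th percentile), Cd82 (-0.0012, d 2 to d 16, normexp, and -0.041 to 0.14 without single arrays, lowest without d 2 dam 3), Cd82 (0.013) and Hspa8 (-0.081) from d 2 to d 9 with a fixed slide block, Anxa2 from d 2 to d 9 without d 2 dam 1 (-0.12) or d 9 dam 2 (-0.15; range -0.15 to 0.21), and Pdcd6ip from d 2 to d 9 without d 9 dam 3 (-0.0092; range -0.0092 to 0.20).

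With the dam as a replicate block, the call of Pdcd6ip from d 2 to d 16 was lost (-0.49, adjusted p = 0.0578) and no other marker gene's call changed, while probes called from d 9 to d 16 went from 239 to 110. Hspa8 lost its call without d 2 dam 2 (adjusted p = 0.0602) or d 16 dam 1 (0.0519), 2 (0.0638) or 3 (0.062). Pdcd6ip lost its call without d 2 dam 2 (0.11) or 3 (0.076) or d 16 dam 1 (0.0968), 2 (0.0599) or 3 (0.11), and Flot1 without d 2 dam 2 (0.0833) or 3 (0.0621), d 9 dam 2 (0.082) or 3 (0.0563) or d 16 dam 3 (0.05). A fixed slide block could be fitted for d 2 to d 9 alone.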
